A study of Homo sapiens with 6 samples.

Results

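The genes described are those of cholesterol and fatty acid synthesis and of its control by the SREBP transcription factors, followed in Capan-1 cells with and without a transfected p16 cDNA. A list of 30 genes was matched by symbol to the array's annotation, and every probe set assigned to exactly 1 of them was taken. This gave 62 probe sets for 28 of the 30 genes, out of 19775 genes that the array names. FDFT1 was not analysed here, and the 2 probe sets annotated to CYP51A1 carry another gene's name as well and were not used. The list does not cover every enzyme and target of the pathway.

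Capan-1 is an established line of human pancreatic carcinoma cells, a carcinoma of ductal type. The p16 group held 3 samples of cells that had received the full-length human p16INK4a cDNA, driven by the cytomegalovirus promoter of the plasmid pRC/CMV, and the mock group held 3 mock-transfected samples. Per the labels' protocols the medium was RPMI with 15% serum, and transfectants were kept under 2 selecting drugs, 1 mg/ml of G418 and 0.1 mg/ml of hygromycin. The labels do not say whether a group came from 1 clone or several, nor what the mock plasmid was, nor what the numbers V1, V2 and V3 carried by the samples of each group stand for. Nothing there states that samples of a group are separate cultures, so the tests below weigh the groups only against the spread among these 6 arrays. All levels are log2 values from Affymetrix HG-U133 Plus 2.0 arrays, so 1 unit is a doubling.

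Cholesterol is built from acetyl-CoA. The mevalonate steps make isoprenoid units, these are joined to squalene, and squalene is closed and trimmed on the endoplasmic reticulum into the finished sterol. SREBP-2, from SREBF2, drives most of these genes, and SREBP-1, from SREBF1, leans towards fatty acid synthesis. Both are held in the endoplasmic reticulum by SCAP and the INSIG proteins while sterol is plentiful, and are carried to the Golgi and cleaved when it is short. SREBPs act on promoters together with NF-Y, which binds CCAAT boxes, and Sp1, which binds GC boxes.

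The promoters of the genes whose levels moved most are shown first, with the promoter of SREBF2, which alone among the matched members carried the sterol regulatory element searched for. RefSeq start sites (GRCh38.p14) were matched for 26 of the 30 genes at 37 start sites, and the 250 bases before each were read 5′ to 3′ on the gene's strand. Capitals mark matches on either strand to the sterol regulatory element TCACNCCAC, the E-box CACGTG, the CCAAT box and the GC box GGGCGG. Where 2 start sites were listed (INSIG2), the first by coordinate is given.
STARD4 (chr5:111512536-111512785, minus strand): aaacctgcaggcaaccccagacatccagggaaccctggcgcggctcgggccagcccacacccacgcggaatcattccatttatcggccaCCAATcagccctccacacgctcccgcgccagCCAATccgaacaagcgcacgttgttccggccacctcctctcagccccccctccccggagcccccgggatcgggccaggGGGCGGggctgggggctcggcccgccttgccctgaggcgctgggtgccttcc
NSDHL (chrX:152830813-152831062, plus strand): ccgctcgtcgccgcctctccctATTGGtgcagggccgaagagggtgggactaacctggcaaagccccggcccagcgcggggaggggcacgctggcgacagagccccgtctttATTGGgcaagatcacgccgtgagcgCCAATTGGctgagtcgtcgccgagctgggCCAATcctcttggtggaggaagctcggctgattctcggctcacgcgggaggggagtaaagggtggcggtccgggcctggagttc
MSMO1 (chr4:165327419-165327668, plus strand): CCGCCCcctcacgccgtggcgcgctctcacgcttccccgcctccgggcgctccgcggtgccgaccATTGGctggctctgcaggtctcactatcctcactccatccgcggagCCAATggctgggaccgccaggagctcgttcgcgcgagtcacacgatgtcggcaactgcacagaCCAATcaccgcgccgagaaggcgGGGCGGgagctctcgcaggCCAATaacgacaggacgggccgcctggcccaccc
EBP (chrX:48521558-48521807, plus strand): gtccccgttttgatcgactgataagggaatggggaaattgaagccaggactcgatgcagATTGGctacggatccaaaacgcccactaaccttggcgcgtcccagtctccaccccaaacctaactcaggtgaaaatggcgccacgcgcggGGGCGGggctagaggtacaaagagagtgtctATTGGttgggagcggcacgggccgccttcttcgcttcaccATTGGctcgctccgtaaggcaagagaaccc
TM7SF2 (chr11:65111622-65111871, plus strand): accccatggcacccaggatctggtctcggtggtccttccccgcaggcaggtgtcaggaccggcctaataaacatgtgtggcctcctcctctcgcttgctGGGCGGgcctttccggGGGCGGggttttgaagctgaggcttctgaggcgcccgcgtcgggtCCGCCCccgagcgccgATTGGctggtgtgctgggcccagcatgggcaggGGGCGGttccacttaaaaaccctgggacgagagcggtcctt
INSIG2 (chr2:118088221-118088470, plus strand): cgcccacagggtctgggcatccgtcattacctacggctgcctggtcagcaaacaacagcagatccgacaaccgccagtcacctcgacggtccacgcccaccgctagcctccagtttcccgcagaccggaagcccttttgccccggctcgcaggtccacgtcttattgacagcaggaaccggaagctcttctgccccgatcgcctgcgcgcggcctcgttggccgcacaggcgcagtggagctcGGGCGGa
SREBF2 (chr22:41832855-41833104, plus strand): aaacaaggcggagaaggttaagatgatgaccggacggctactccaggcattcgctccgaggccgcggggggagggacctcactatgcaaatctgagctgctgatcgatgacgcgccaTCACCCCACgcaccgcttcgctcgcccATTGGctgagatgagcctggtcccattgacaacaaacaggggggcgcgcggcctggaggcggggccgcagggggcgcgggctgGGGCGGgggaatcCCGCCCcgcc
NSDHL carried 5 CCAAT boxes, a pair of which overlap, MSMO1 4, EBP 3, STARD4 2 and TM7SF2 1. No CCAAT box lay in the INSIG2 window. The SREBF2 element, TCACCCCAC, began 133 bases before the start site, with a CCAAT box in reverse at 106 bases. Over the members, 20 of 26 genes held a CCAAT box in at least 1 window (64.9% of the 37 windows, against 32.0% of 35116 RefSeq windows of the same length), and 25 of 26 held a GC box (89.2% of windows against 42.6%). Counted by gene, 37% of all RefSeq genes held a CCAAT box and 46.2% a GC box. Some windows of the same gene overlap, as for ACLY, so a box can count more than once among windows. The sterol element was in 1 member window (2.70%, against 0.883% of all) and the E-box in 4 (10.8% against 6.34%), for SC5D, INSIG1 and SCAP. The RefSeq windows cover 27305 genes, whether tested here or not, and were not matched to the members for expression or base content. These matches describe the letters in the windows, not binding.

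Before the results, 3 facts of the series bear on them. CDKN2A, which encodes p16, read 2.03, 2.03 and 2.02 in the mock samples and 11.92, 11.96 and 11.88 in the p16 samples on 1 of its 3 probe sets; another read 5.61 to 6.43 and 12.12 to 13.01, and the third lay under 4 in every sample. MTAP, a neighbouring gene that a p16 cDNA does not carry, read 2.07, 2.07 and 2.06 in mock and 11.35, 10.77 and 11.05 in p16 samples on its brightest probe set, so p16 itself and other differences between the 2 cell populations cannot be told apart. The V1 sample of each group stood apart, with levels correlating at 0.93 to 0.94 with V2 and V3 of its group, which correlated with each other at 0.99 (across probe sets). The 3′ minus 5′ difference of the actin control probe sets, a sign of RNA or labelling quality that grows when long copies are lost, was 2.94, 1.39 and 2.40 in mock V1, V2 and V3 and 3.46, 1.15 and 1.76 in p16, and that of GAPDH 1.10, 0.20 and 0.43 against 0.85, 0.18 and 0.26. Among the members, the V1 sample deviated the same way from V2 and V3 in both groups in 27 of 28 genes (80.6% of all genes tested), and what part this difference has in single probe sets was not tested. Markers of ductal epithelium, 7 of 8 on the array, were at 4 or above in every sample, with summed levels of 96.9 to 99.3 in mock and 80.0 to 82.3 in p16 samples and 5 called lower. Markers of leukocytes (5 on the array, summed 12.4 in mock and 12.5 to 12.8 in p16 samples), endothelium (4), adipocytes (4) and acinar cells (3) all lay under 4 in every sample. Of 8 fibroblast markers 4 lay under 4 in every sample, the sum was 27.6 to 28.3 in mock and 35.5 to 37.7 in p16 samples, and LUM was called higher; of 5 hepatocyte markers 3 lay under 4 in every sample, the sum was 20.7 to 22.1 and 17.7 to 18.1, and SERPINA1 was called lower. The part of these markers in the results below was not tested, and with bulk RNA, fewer cells of a kind and less RNA per cell cannot be told apart.

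Cholesterol synthesis genes were higher in p16 than in mock cells more often than lower, above all in the steps from isoprenoid units onwards. The transport genes STARD4 and NPC1 also rose, while the sensor INSIG2 and the reductase TM7SF2 fell. Of the 28 genes tested, each by its brightest probe set, 12 rose, 3 fell and 13 were not called (limma, Benjamini-Hochberg adjusted p under 0.05 over all 24406 tested probe sets). The share called was 53.6%, against 42.0% of 11658 genes on the array; 42.9% of members rose (19.5% of all genes) and 10.7% fell (22.5% of all). The median change of the members was 0.70, beside -0.03 for all genes tested. The list was chosen with earlier results of these data known, so these shares and medians describe it and are no test of it. The groups did not overlap in 21 of 28 members, against 56.4% of all genes; p16 lay above in 16 (27.3% of all genes) and below in 5 (29.1%). Of the 56 tested probe sets of the members 19 rose and 4 fell, where 17.5% of all probe sets rose and 19.7% fell (37.2% called). Leaving out mock V3, p16 V2 or p16 V3 each left 7 genes higher, and mock V2 left 8. Testing without the low value filter also left 7, since MVK, GGPS1, HSD17B7, DHCR7 and NPC1 lost their calls (adjusted p of 0.054 to 0.12). When the fit paired samples by V number, as a replicate block, 18 members rose (32.4% of all genes) and 5 fell (35.5%), with 67.9% of all genes called. Without both V1 samples 16 rose and 5 fell.

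**Figure D1:**
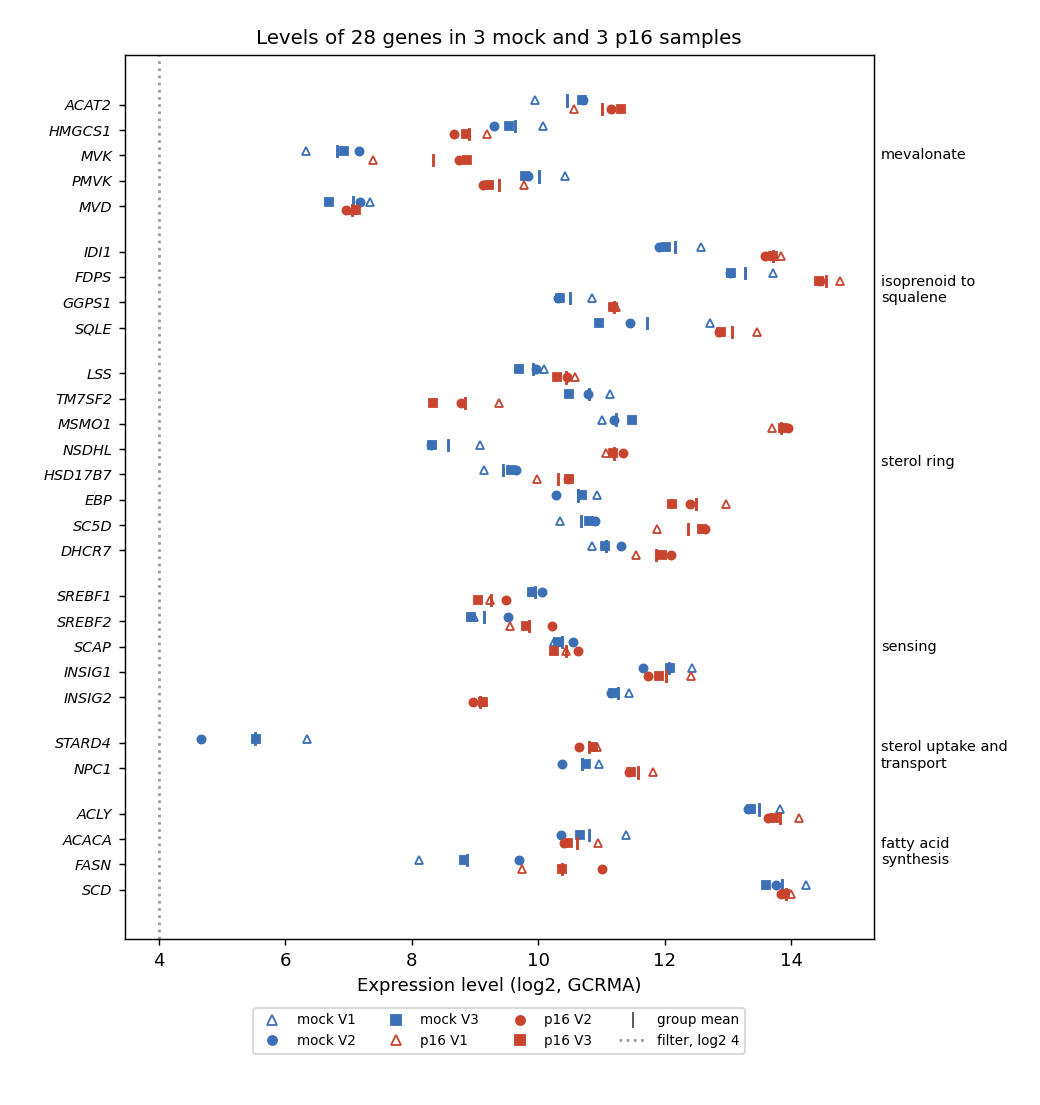
Level of each gene's brightest probe set (log2 on the horizontal axis) in the 3 mock (blue) and 3 p16 (red) samples, by pathway step; symbols give the V number, vertical bars the group means, and the dotted line the filter at 4. The p16 samples of STARD4, MSMO1 and NSDHL lie clear to the right of the mock samples, those of INSIG2 and TM7SF2 to the left, and those of INSIG1, SCAP and SCD among them.

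The mevalonate steps, from acetoacetyl-CoA to isopentenyl diphosphate, showed little common movement, with 1 of 5 genes higher and none lower. Of all genes 19.5% rose and 22.5% fell. MVK, mevalonate kinase, read 6.33, 7.16 and 6.93 in mock V1, V2 and V3 and 7.39, 8.74 and 8.87 in p16 samples, a rise of 1.53 (SE 0.47, adjusted p = 0.048), or 2.88-fold. All p16 samples lay above the mock samples, and 2 of the gene's 3 tested probe sets were called. The other called probe set rose by 0.92 (adjusted p = 0.037). The uncalled one was brighter in mock (mean 7.27 beside 6.81) and differed by 0.48 (adjusted p = 0.13, and 0.017 with the block). The 2.88-fold rise is thus the largest of the 3. The MVK call ended without mock V1 (adjusted p = 0.11), mock V2 (0.083), mock V3 (0.11), p16 V2 (0.15) or p16 V3 (0.14), and with a trended, robust variance model (0.053). HMGCS1, which makes HMG-CoA, read 10.07, 9.30 and 9.53 in mock and 9.18, 8.66 and 8.86 in p16 samples. Its p16 samples all lay below the mock samples, but the difference of -0.73 (SE 0.27) was not called (adjusted p = 0.080, and 0.0060 with the replicate block). A second probe set of HMGCS1 read 6.46, 9.07 and 8.86 in mock and 3.52, 7.97 and 8.29 in p16 samples, so that V1 was the lowest of each group, by more than the groups differed. PMVK, phosphomevalonate kinase, differed by -0.65 (adjusted p = 0.12, and 0.0070 with the block) with no overlap, from 10.01 ± 0.35 (SD, n = 3) in mock to 9.37 ± 0.35 in p16 cells. ACAT2, the thiolase of the cytosol that opens the route, differed by 0.56 (adjusted p = 0.22, and 0.012 with the block). MVD, the decarboxylase, read 7.07 ± 0.34 in mock and 7.05 ± 0.09 in p16 cells.

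In the isoprenoid steps, up to the epoxidation of squalene, 3 of 4 genes rose, against 19.5% of all genes. In all 4 every p16 sample lay above every mock sample, as in 27.3% of all genes. IDI1, the isomerase of isopentenyl diphosphate, read 12.57, 11.91 and 12.02 in mock and 13.84, 13.59 and 13.70 in p16 samples. This is a rise of 1.54 (SE 0.23, adjusted p = 0.0037), and a second bright probe set rose by 1.56; both, and the dimmest of its 4 probe sets, are of a kind whose probes can also match other transcripts. The remaining IDI1 probe sets, both dimmer, pointed the other way, at -1.17 (adjusted p = 0.063) and -1.50 (adjusted p = 0.11), and both were called lower with the block (0.0027 and 0.00076). Averaged over its 4 probe sets IDI1 differed by 0.11 (adjusted p = 0.70), so its direction holds for the bright pair only. FDPS, which makes farnesyl diphosphate, read 13.70, 13.03 and 13.04 in mock and 14.76, 14.45 and 14.44 in p16 samples, a rise of 1.29 (SE 0.25, adjusted p = 0.0097) or 2.45-fold. GGPS1, which makes the geranylgeranyl diphosphate used to anchor proteins, rose by 0.69 (10.50 ± 0.30 to 11.19 ± 0.03, adjusted p = 0.041). That call ended without mock V2 (0.12), mock V3 (0.13), p16 V1 (0.080), p16 V2 (0.11) or p16 V3 (0.11). A dimmer GGPS1 probe set, whose groups overlapped, differed by 0.57 and was not called (adjusted p = 0.29, and 0.088 with the block). SQLE, squalene epoxidase and a rate-limiting enzyme of the route, read 12.72, 11.45 and 10.96 in mock and 13.46, 12.86 and 12.88 in p16 samples. Its mock V1 sample was nearly as high as p16 V2 and V3, and the difference of 1.36 (SE 0.48) was not called (adjusted p = 0.077), but was called without mock V1 (1.86, adjusted p = 0.0084) and with the block (0.0095). All 4 SQLE probe sets pointed up, and 1 of them rose by 1.93 (adjusted p = 0.0051).

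Of the 8 genes that close and trim the sterol ring 6 rose and 1 fell, against 19.5% and 22.5% of all genes. MSMO1 (Entrez Gene 6307), the oxidase that starts a later demethylation of the ring, after that done by CYP51A1, read 11.01, 11.19 and 11.47 in mock and 13.69, 13.94 and 13.86 in p16 samples, 6.08-fold higher (a rise of 2.60, SE 0.19, adjusted p = 0.00025). NSDHL (Entrez Gene 50814), the dehydrogenase that acts next, read 9.08, 8.31 and 8.32 in mock and 11.06, 11.34 and 11.18 in p16 samples, 6.17-fold higher (2.63, SE 0.26, adjusted p = 0.00082). The groups of each gene lay far apart beside their spread (largest SD 0.44, in the NSDHL mock samples), and the second NSDHL probe set rose by 2.01. HSD17B7, the reductase that completes this demethylation with them, rose by 0.86 (9.45 ± 0.27 to 10.31 ± 0.28, adjusted p = 0.034). Its probe set, too, is of a kind whose probes can match other transcripts, and near-identical copies of the gene exist, so the value may not be its own. The HSD17B7 call ended without mock V1 (0.068), mock V2 (0.061), mock V3 (0.077), p16 V2 (0.11) or p16 V3 (0.12).

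EBP (Entrez Gene 10682), the isomerase that shifts the ring's double bond, read 10.92, 10.28 and 10.69 in mock and 12.96, 12.39 and 12.11 in p16 samples, 3.61-fold higher (1.85, SE 0.29, adjusted p = 0.0049). All 3 of its tested probe sets rose, by 1.38 to 3.07. SC5D, the desaturase that follows, read 10.34, 10.89 and 10.80 in mock and 11.87, 12.63 and 12.59 in p16 samples, 3.22-fold higher (1.69, SE 0.29, adjusted p = 0.0062). DHCR7, the reductase of the last step, rose by 0.79 (11.07 ± 0.23 to 11.87 ± 0.28, adjusted p = 0.038), a call that ended without mock V1 (0.082), mock V2 (0.053), mock V3 (0.11), p16 V2 (0.12) or p16 V3 (0.12). A second DHCR7 probe set, whose groups overlapped, differed by 0.90 (adjusted p = 0.12, and 0.0026 with the block). LSS, which closes squalene epoxide to lanosterol, differed by 0.53 with no overlap (9.91 ± 0.20 and 10.44 ± 0.15, adjusted p = 0.067, and 0.013 with the block). Averaged over its 3 probe sets, each higher in p16 cells, LSS rose by 0.93 (adjusted p = 0.0072).

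TM7SF2 (Entrez Gene 7108), a sterol reductase, went against its neighbours in the route. It read 11.13, 10.79 and 10.49 in mock and 9.38, 8.77 and 8.34 in p16 samples, a fall of 1.97 on the log2 scale or 3.91-fold (SE 0.33, adjusted p = 0.0058). Every p16 sample lay more than 1 unit below the lowest mock sample. The lamin B receptor LBR, which has the same reductase activity, differed by 0.60 (adjusted p = 0.072, and 0.0090 with the block), from 12.28 ± 0.20 among the mock to 12.88 ± 0.25 among the p16 samples; it was named after its values were seen.

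**Figure D2:**
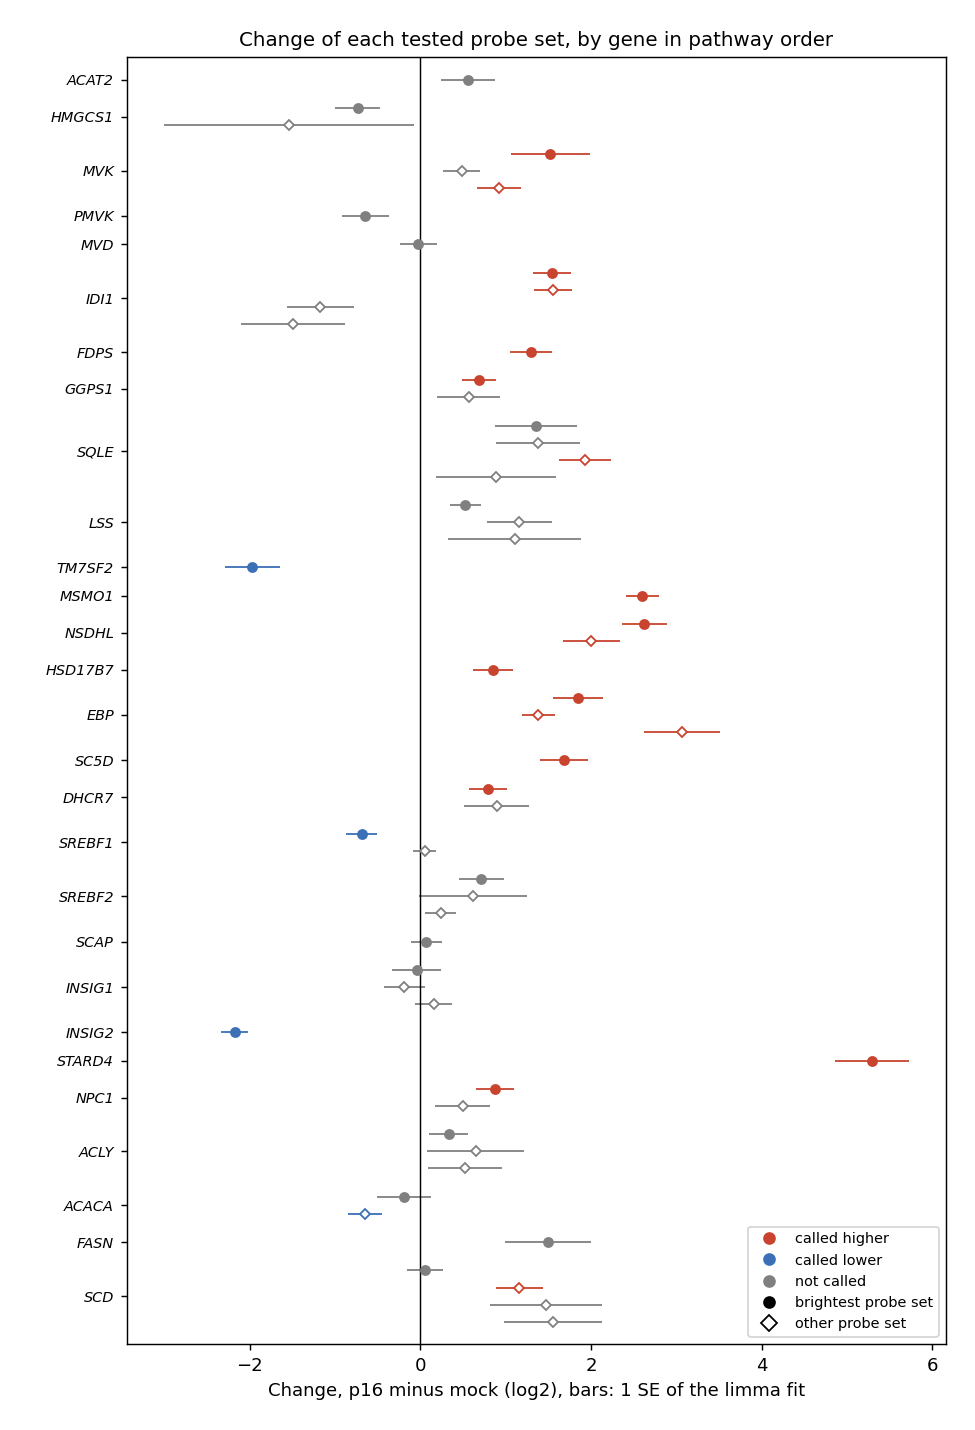
Change between p16 and mock cells (log2, horizontal axis, bars 1 SE) of all 56 tested probe sets, grouped by gene in pathway order; filled circles are the brightest probe set of a gene and open diamonds the others, with red and blue for probe sets called higher and lower and grey for those not called. All tested probe sets of EBP and NSDHL lie to the right of 0, those of IDI1 lie on both sides, and the brightest SCD probe set lies at 0.05 with its other 3 at 1.16 to 1.56.

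Among the 5 sensing genes INSIG2 and SREBF1 fell and none rose, where 22.5% of all genes fell and 19.5% rose. INSIG2 (Entrez Gene 51141), which holds the SCAP-SREBP complex in the endoplasmic reticulum, read 11.44, 11.15 and 11.17 in mock and 9.13, 8.97 and 9.13 in p16 samples, 4.52-fold lower (a change of -2.18, SE 0.16, adjusted p = 0.00028). Spread within each group was small beside this gap. INSIG1, its relative, read 12.43, 11.66 and 12.09 in mock and 12.42, 11.73 and 11.91 in p16 samples. The groups overlapped in each of its 3 probe sets, whose differences were -0.19 to 0.16. SREBF1 read 9.89, 10.05 and 9.89 in mock and 9.23, 9.49 and 9.05 in p16 samples, a fall of 0.69 on the log2 scale (SE 0.18, adjusted p = 0.029). The SREBF1 call ended without mock V2 (0.090), mock V3 (0.077), p16 V1 (0.059) or p16 V3 (0.10), with each sample centred on its median (0.051), and over the mean of its 2 probe sets (-0.32, adjusted p = 0.11). SREBF2 read 8.99, 9.52 and 8.93 in mock and 9.56, 10.22 and 9.80 in p16 samples. Every p16 sample was above every mock sample, by a difference of 0.71 (SE 0.26) that was not called (adjusted p = 0.084, and 0.0070 with the block). The dimmer SREBF2 probe sets differed by 0.62 (adjusted p = 0.50) and 0.24 (adjusted p = 0.36). Neither was called with the block (0.072 and 0.15). SCAP, the escort of both factors, read 10.37 ± 0.16 and 10.44 ± 0.19 in the mock and p16 groups, with no call (adjusted p = 0.81).

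Both members of sterol movement rose, where 19.5% of all genes did. The neighbouring list of sterol uptake, storage and efflux, given below, had 4 of 15 tested genes higher and 5 lower. STARD4 (Entrez Gene 134429), a soluble carrier that moves cholesterol between membranes, had the largest change of any member, on its only probe set. It read 6.34, 4.67 and 5.54 in mock and 10.93, 10.63 and 10.86 in p16 samples, a rise of 5.29 (SE 0.43, adjusted p = 0.00038), or 39.2-fold. The mock levels were near the filter at 4, where the background correction bears on a fold, and they spread more (SD 0.84) than the p16 levels (SD 0.15). NPC1, which exports cholesterol from lysosomes, rose by 0.88 (10.69 ± 0.30 to 11.58 ± 0.21, adjusted p = 0.026). That call ended without mock V2 (0.071), mock V3 (0.074), p16 V1 (0.059), p16 V2 (0.063) or p16 V3 (0.070). A dimmer tested NPC1 probe set, whose groups overlapped, differed by 0.50 and was not called (adjusted p = 0.28, and 0.12 with the block).

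In fatty acid synthesis none of 4 genes was called on its brightest probe set, where 42.0% of all genes were. FASN, the fatty acid synthase, read 8.12, 9.69 and 8.82 in mock and 9.74, 11.01 and 10.37 in p16 samples. The groups barely missed each other, since p16 V1 lay just above mock V2. Within each V number FASN was higher in the p16 sample, by 1.63, 1.31 and 1.54, and the difference of 1.49 (SE 0.51) was called with the block (adjusted p = 0.00089) but not without it (0.066). It was also called without mock V2 (0.041) and where genes were tested as means over their probe sets (0.048), although FASN has only 1 tested probe set. SCD, the desaturase that makes oleate, read 14.22, 13.76 and 13.59 in mock and 14.00, 13.84 and 13.89 in p16 samples on its brightest probe set, with no call (adjusted p = 0.88). Its other 3 probe sets were higher in p16 cells, the brightest of these by 1.16 (11.35 ± 0.40 to 12.51 ± 0.31, adjusted p = 0.022) and the dimmer pair by 1.47 and 1.56 (adjusted p = 0.14 and 0.086), and over the mean of all 4 SCD rose by 1.06 (adjusted p = 0.041). ACLY, which supplies acetyl-CoA in the cytosol, differed by 0.33 (adjusted p = 0.31, and 0.048 with the block). ACACA, acetyl-CoA carboxylase, differed by -0.19 on its brightest probe set (adjusted p = 0.69), while a dimmer one fell by 0.65 (8.71 ± 0.10 to 8.06 ± 0.27, adjusted p = 0.046).

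**Figure D3:**
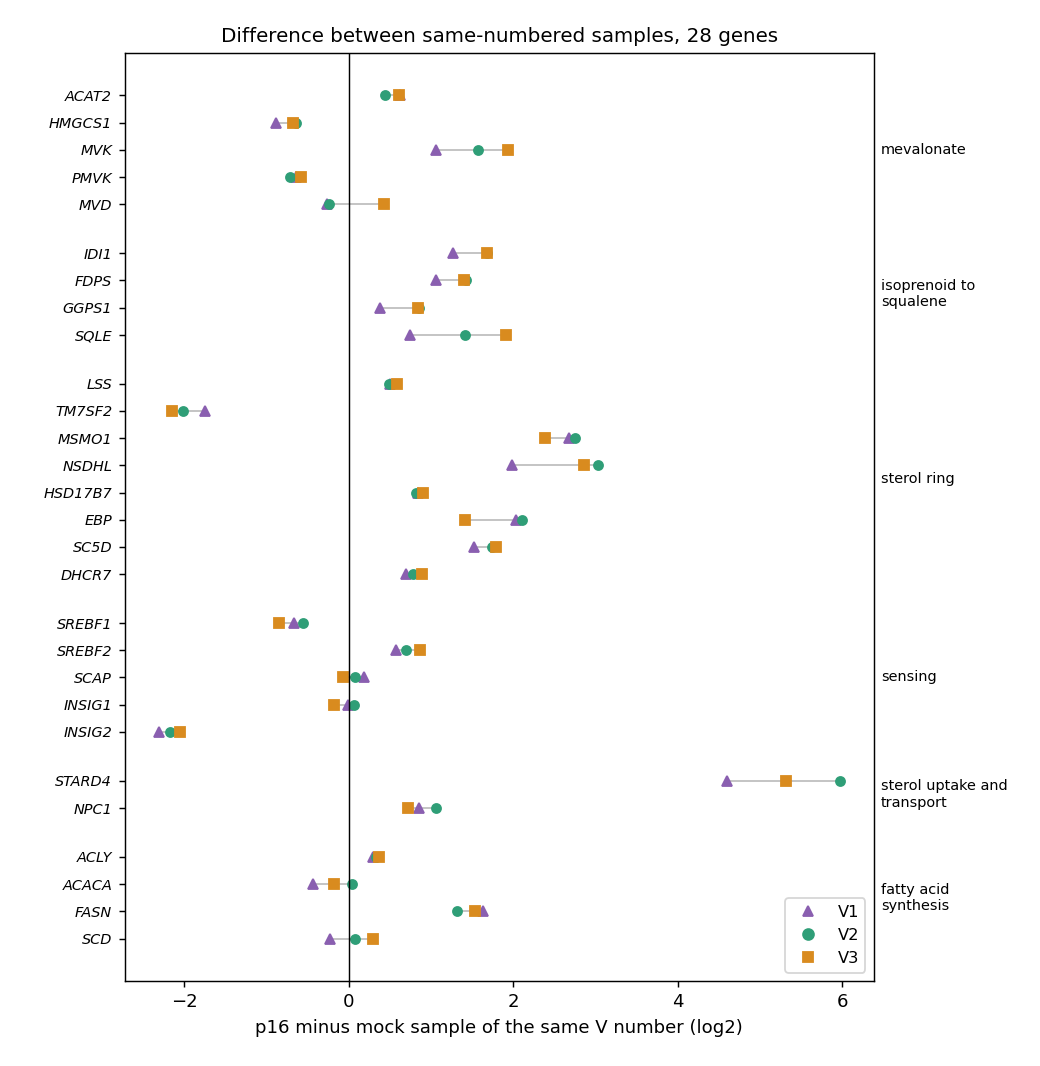
Difference between the p16 and the mock sample of the same V number (log2, horizontal axis) for each of the 28 genes, with V1, V2 and V3 as separate symbols and grey lines spanning them. For 23 genes all 3 differences have 1 sign; MVD, SCAP, INSIG1, ACACA and SCD have differences on both sides of 0.

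Differences within a V number kept their sign for most members, as they did for most genes of the array. All 3 had the same sign in 23 of 28 genes, or 82.1%, against 85.4% of all genes tested, so this share lies near that of the array. The median over the members was 0.60 in V1, 0.74 in V2 and 0.78 in V3. STARD4 spanned 4.59 to 5.97, NSDHL 1.99 to 3.03 and SQLE 0.74 to 1.92, with V1 the lowest in each. HSD17B7 (0.82 to 0.91), LSS (0.50 to 0.59) and INSIG2 (-2.31 to -2.05) spanned less. Of the 16 members with several tested probe sets, none had probe sets called in opposite directions in the fit without the block (with it, IDI1 had 2 called higher and 2 lower), NSDHL and EBP had each one called higher, and 9 had some called and some not. STARD4, MSMO1, FDPS, INSIG2 and TM7SF2 had 1 probe set each, so agreement between probe sets could not be checked for them.

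Neighbouring parts of lipid metabolism held genes called in both directions, and their counts are read against the 19.5% of all genes that rose and the 22.5% that fell. Of 13 tested genes that use isoprenoids for prenylation, dolichol or ubiquinone, 5 rose and 1 fell (38.5% and 7.69%; 46.2% called, near the 42.0% of the array; median change 0.73). RABGGTA, a subunit of the enzyme that prenylates Rab proteins, rose 5.15-fold (6.96 ± 0.21 to 9.33 ± 0.24, adjusted p = 0.00048), and PGGT1B, the beta subunit of a geranylgeranyl transferase, rose 4.15-fold (7.91 ± 0.27 to 9.97 ± 0.32, adjusted p = 0.0016). FNTB, the beta subunit of farnesyltransferase, read 5.54, 4.89 and 6.48 in mock and under 4 in every p16 sample, at least 3.10-fold lower (adjusted p = 0.0030). Of 11 tested genes of SREBP transport, cleavage and sterol-regulated degradation, 5 rose and 2 fell (45.5% and 18.2%, median 0.19). The partners ERLIN1 and ERLIN2, which form a complex in the endoplasmic reticulum that restrains SREBP, differed in direction. ERLIN2 rose 4.73-fold (8.43 ± 0.30 to 10.67 ± 0.54, adjusted p = 0.0036). ERLIN1 differed by -0.73 (11.95 ± 0.64 to 11.22 ± 0.54), lower in all 3 V numbers, and was not called (adjusted p = 0.24), but was with the block (0.0053) and over the mean of its probe sets (0.029). Of the 4 SEC24 genes, whose coat proteins select cargo that leaves the endoplasmic reticulum, 3 rose and 1 fell. SEC24A rose by 1.17 (adjusted p = 0.0030), SEC24B by 1.34 (0.014) and SEC24D by 1.33 (0.013), while SEC24C fell by 1.69 (0.015). SEC24B lost its call without mock V2 (0.053), p16 V2 (0.054) or p16 V3 (0.055), SEC24D without p16 V2 (0.051) or p16 V3 (0.055), and SEC24C without p16 V2 (0.059) or p16 V3 (0.058) and with no filter (0.054). The proteases MBTPS1 and MBTPS2, which cleave SREBPs, differed by -0.23 and 0.11 and were not called (adjusted p = 0.40 and 0.72); ERLIN1, SEC24A, SEC24D and both proteases were named after their values were seen.

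Of 17 tested genes of fatty acid elongation, desaturation and activation 3 rose and 4 fell (17.6% and 23.5%, at the rates of the array; median 0.32). ACSL5, an acyl-CoA synthetase, read 11.35, 10.79 and 10.79 in mock and 2.99, 2.97 and 2.68 in p16 samples, at least 126-fold lower (adjusted p = 9.1e-06). HSD17B12, a reductase of the elongation cycle, read 12.25, 11.66 and 11.93 in mock and 7.49, 6.13 and 6.53 in p16 samples, 37.5-fold lower (adjusted p = 0.00027). MLXIPL, the carbohydrate response factor ChREBP, was at least 3.31-fold lower (adjusted p = 0.0021), with all p16 samples under 4. Among 11 glycerolipid genes 1 rose and 3 fell (9.09% and 27.3%; 36.4% called, no more than on the array; median -0.26). AGPAT2, which acylates lysophosphatidic acid, fell from 10.70 ± 0.22 to 6.23 ± 0.97 (adjusted p = 0.0013), and DGAT1, which makes triglyceride, from 9.47 ± 0.21 to 8.06 ± 0.52 (adjusted p = 0.015, and 0.057 without p16 V2). CDS1, which makes CDP-diacylglycerol, rose 3.26-fold (adjusted p = 0.00053).

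Sterol uptake, storage and efflux had 4 of 15 tested genes higher and 5 lower (26.7% and 33.3%, median -0.49). VLDLR, a lipoprotein receptor, read 6.14, 4.05 and 3.99 in mock and 10.07, 8.35 and 8.56 in p16 samples, a rise of 4.26 (SE 0.75, adjusted p = 0.0073), with 1 mock sample under 4. ABCG1, a sterol efflux pump, read 8.74, 8.44 and 8.78 in mock and 3.13, 3.08 and 3.10 in p16 samples, at least 25.2-fold lower (adjusted p = 1.1e-05); 1 of its 2 tested probe sets was called. NR1H3, the oxysterol receptor LXR alpha that induces such pumps, read 8.81, 9.64 and 9.40 in mock and 2.89, 4.86 and 5.62 in p16 samples, a change of -4.83 (SE 0.72, adjusted p = 0.0039). All p16 values of both genes lay far below the mock values, and 1 p16 sample of NR1H3 was under 4.

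**Figure D4:**
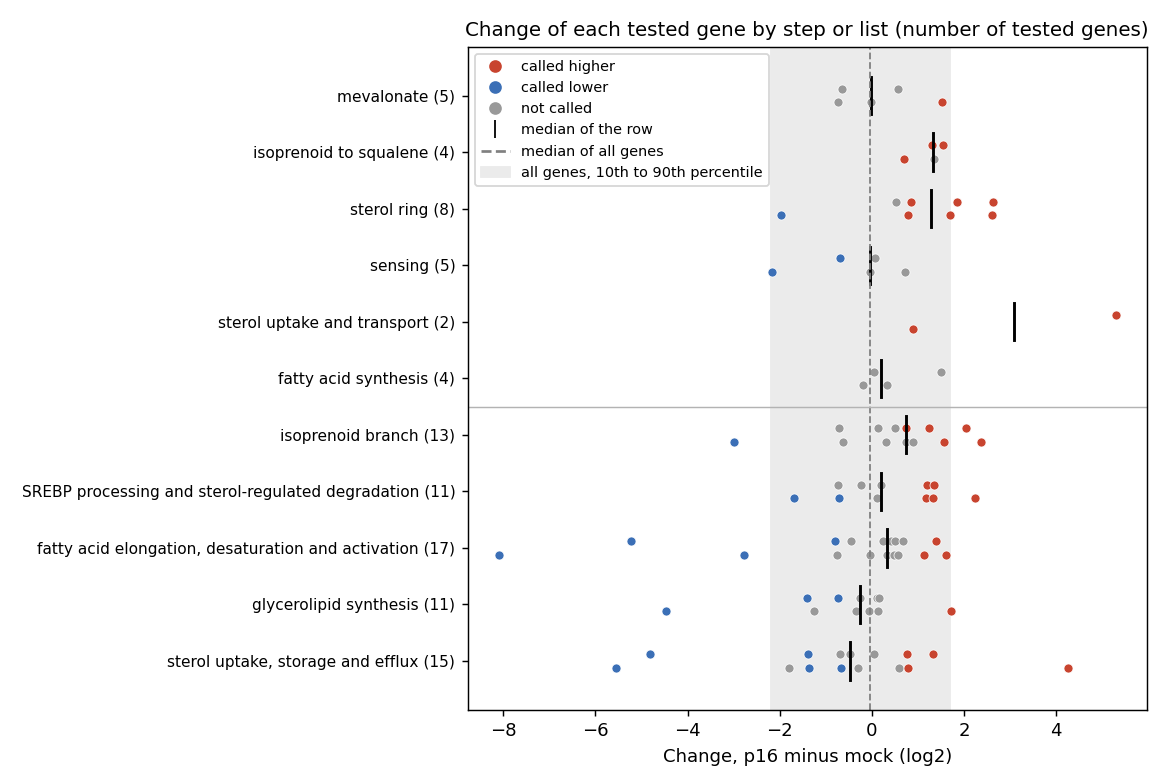
Change between p16 and mock cells (log2, horizontal axis) of every tested gene in the 6 groups of members (above the line) and the 5 neighbouring lists (below it); red and blue mark genes called higher and lower, grey those not called, black bars row medians, the dashed line the median of all genes and the band their 10th to 90th percentile (-2.18 to 1.69). The rows "isoprenoid to squalene" (IDI1, FDPS, GGPS1 and SQLE) and "sterol ring" have medians of 1.33 and 1.27, those of the mevalonate and sensing genes -0.02 and -0.04, and the largest falls, ACSL5, ABCG1 and HSD17B12, lie in the neighbouring lists.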

How the data were processed

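The values are log2 expression levels deposited by the authors, made with GCRMA per the submitters' processing notes; the version is not given in the sources used here. GCRMA models background by probe sequence, so dim probe sets gather near a floor, on which any fold against it depends. Of 54675 probe sets, 62 controls were left out. GEO's platform annotation named 1 gene for 41091; 1801 with several genes named none, and 11721 are unnamed here. Array values carry no genome build.

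A probe set was tested with a log2 value of at least 4 in at least 3 of 6 samples. The groups' difference was fitted with lmFit and eBayes (limma 3.58.1, R 4.3.3; two-sided, no block), with Benjamini-Hochberg adjustment at 0.05. A gene takes its brightest tested probe set. A group wholly under 4 gives a fold as a bound against 4. The number of arrays limits precision.

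Deviations from the group means correlated across probe sets at 0.81, 0.75 and 0.67 between samples sharing a V number, above the limit of 0.1. The numbers were therefore used as pairing, but only in an alternative fit, and the fit reported was unpaired. V2 and V3 of opposite groups also correlated (0.51 and 0.42), so these values alone do not establish that V2 and V3 pair across groups. Other alternatives were the filter, normalization, floor, variance model, probe set rule and samples left out. The test was checked on simulated data. Members and lists were chosen with earlier results of these data known. All members are named; of each neighbouring list, up to 3 called genes with the largest change and no overlap. Software for tables and plots was pandas 2.3.3, numpy 2.4.6 and matplotlib 3.10.9 under Python 3.11.15.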

Additional observations from a re-analysis of the deposited data

How the results depend on the processing

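The count of members higher in p16 cells, 12, moved to 7 without the low value filter, and the count lower, 3, to 5 with the replicate block, under which 7916 genes on the array were called in place of 4895. Samples left out singly, or both V1 samples together, gave 7 to 16 members higher (7 to 10 singly), 2 to 5 lower, a median of 0.61 to 0.81 and 3484 to 6866 genes called on the array. Genes near 0 changed sign: MVD was 0.18 after quantile normalization and 0.035 after median centring, INSIG1 0.020 after centring and SCD -0.011 after quantile normalization. With single samples left out, MVD ranged from -0.22 to 0.11, INSIG1 from -0.24 to 0.15, SCAP from -0.027 to 0.16, ACACA from -0.41 to 0.10, MBTPS2 from -0.028 to 0.22 and SCD from -0.080 to 0.23; the cause was not tested. None of these genes was called in the fit reported. The block changed the calls of 8 members, from not called to called, and of LBR and ERLIN1 among the neighbouring genes named, likewise to called. STARD4, MSMO1, NSDHL, EBP, SC5D, FDPS, INSIG2 and TM7SF2 kept direction and call under every alternative run. Raising values to 4 changed no call among the 51 genes followed. Signal near the background limits STARD4, VLDLR and NR1H3 in size, not in direction among the alternatives run.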
